A study of Homo sapiens with 8 samples.

Results

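The small nuclear, vault, Y and 7S RNAs are short structured noncoding RNAs, most of them transcribed by RNA polymerase III or, for the Sm-class small nuclear RNAs, by RNA polymerase II. The 38 genes described here were chosen by symbol: copies of the spliceosomal U1, U2, U4, U5 and U6 RNAs, the U7 RNA of histone mRNA processing, the minor spliceosomal RNAs, the vault and Y RNAs, 7SK, 7SL, and the RNA subunits of RNase P (RPPH1) and RNase MRP (RMRP). Of these, 37 were among the 60606 genes of the count table and RNY5 was not analysed here. The U RNAs form particles with Sm or LSm protein rings and recognise splice sites or catalyse splicing. 7SK RNA holds the elongation kinase P-TEFb inactive, 7SL RNA is the scaffold of the signal recognition particle, vault RNAs are bound by the large vault particle, and Y RNAs are bound by the Ro60 and La proteins.

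Total RNA came from HEK293, an established cell line of human embryonic kidney origin. The 4 control libraries were from cells given a scrambled mimic, and the 4 tDR libraries from cells given a mimic of a fragment from the 3' end of tRNA-Asp-GTC (tDR, a tRNA-derived RNA). Both mimics were transfected at 50 nM with Lipofectamine RNAiMax and the cells were collected 48 hours later, so all 8 libraries share the line, the lipid reagent and the transfection. The labels do not say whether the replicates were separate cultures. The p-values set the difference between groups only against the spread of these libraries, and that spread may be technical.

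The main difference lay in the counts at the U6 gene RNU6-2, which rose 16.3-fold from a control total of 17 counts. Other U6 genes have the same sequence, so these counts cannot be assigned to that gene from sequence alone. VTRNA1-3 fell by 0.65 on the log2 scale, and RNU1-1 (lower) and RNU4-1 (higher) passed the test by a margin that most alternatives removed. The other 12 tested genes did not pass. Several of these RNAs exist as near-identical gene copies, so sequences of the vault, U4 and U1 families are given first to show how far a read can tell the copies apart. They are the GENCODE release 29 transcripts on GRCh38, written 5′ to 3′ as DNA, and capitals mark the letters that differ from, or are added to, the first sequence of each family.

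Among the U6 copies, RNU6-2, RNU6-1 and RNU6-9 hold the same 107 bases. RNU6-7 and RNU6-8 have 1 sequence, which differs from that of RNU6-2 at 1 position.

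The vault RNAs are shown because 1 of the tested members fell, and these copies can be told apart. VTRNA1-1 (chr5:140711275-140711373), VTRNA1-2 (chr5:140718925-140719013) and VTRNA1-3 (chr5:140726158-140726246) lie on the plus strand. VTRNA1-2 and VTRNA1-3 differ at 11 of 90 aligned positions.
VTRNA1-3: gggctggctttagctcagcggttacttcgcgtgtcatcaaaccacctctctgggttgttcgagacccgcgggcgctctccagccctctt
VTRNA1-2: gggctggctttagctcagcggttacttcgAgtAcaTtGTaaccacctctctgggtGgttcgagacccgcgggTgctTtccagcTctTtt
VTRNA1-1: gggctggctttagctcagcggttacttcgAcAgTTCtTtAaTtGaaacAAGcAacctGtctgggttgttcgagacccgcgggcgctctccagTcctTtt

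The U4 genes lie beside each other on the minus strand of chromosome 12, RNU4-2 at chr12:120291763-120291903 and RNU4-1 at chr12:120293097-120293237. They differ at 4 of 141 positions.
RNU4-2: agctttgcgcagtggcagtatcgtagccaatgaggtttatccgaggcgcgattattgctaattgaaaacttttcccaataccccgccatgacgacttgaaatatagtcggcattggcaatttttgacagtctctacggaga
RNU4-1: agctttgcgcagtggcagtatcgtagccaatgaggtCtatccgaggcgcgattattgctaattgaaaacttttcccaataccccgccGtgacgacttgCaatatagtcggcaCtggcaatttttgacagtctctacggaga

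The U1 copies RNU1-1 (chr1:16514122-16514285) and RNVU1-18 (chr1:143729407-143729570) have 1 sequence, which RNU1-2, RNU1-3 and RNU1-4 share. RNVU1-7 (chr1:148038753-148038916) differs from it at 1 of 164 positions.
RNU1-1: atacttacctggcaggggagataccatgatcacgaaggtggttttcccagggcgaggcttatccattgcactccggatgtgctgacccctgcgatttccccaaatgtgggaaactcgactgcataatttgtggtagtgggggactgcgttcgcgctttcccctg
RNVU1-7: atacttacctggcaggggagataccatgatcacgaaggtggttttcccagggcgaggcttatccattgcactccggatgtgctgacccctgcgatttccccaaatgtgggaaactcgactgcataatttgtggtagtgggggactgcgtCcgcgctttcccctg

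As a measure of how far a read could be placed, each transcript was read in windows of 50 bases against all annotated short noncoding RNAs. All 58 windows of RNU6-2 and all 115 of RNU1-1 also occurred in another gene, against 12 of 92 windows of RNU4-1, 1 of 92 of RNU4-2, 0 of 40 of VTRNA1-3 and 0 of 215 of RMRP. Among the Y RNAs, 53 of 53 windows of RNY3, 16 of 64 of RNY1 and 6 of 47 of RNY4 were shared in this way. Counts of the U6 and U1 copies and of RNY3, and in part of RNY1 and RNY4, are therefore uncertain for each single gene. A value for RNU6-2, for example, cannot be assigned to that gene rather than to its copies from sequence alone.

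The libraries held 5848305 to 10557740 counts, and the 37 genes took 0.209% to 0.337% of them, of which RMRP alone gave 89.3%. Levels are in CPM, the usual depth-scaled count unit, with library sizes scaled by edgeR's TMM factors. Of the 6 markers of HEK293, all were counted, with a summed level of 524 to 574 CPM in the control and 461 to 508 CPM in the tDR libraries. NEFM and NEFL fell and PAX2 and KRT8 rose. Marker sums of 3 other cell types moved with the group. The 3 endothelial markers summed to 5.25 to 8.10 CPM in the control and 12.2 to 14.1 CPM in the tDR libraries. The 4 fibroblast markers summed to 18.1 to 22.3 CPM and 28.6 to 34.9 CPM. COL1A1 gave most of that sum, at means of 16.7 and 26.1 CPM, and COL3A1 stood at 2.75 and 2.61 CPM. The low DCN (0.510 and 1.18 CPM) and LUM (0.693 and 1.59 CPM) went with COL1A1. The 4 tubule markers summed to 1.67 to 3.07 CPM and 3.50 to 5.34 CPM, with AQP2 at 0. SLC34A1 went from a mean of 0.748 to 2.33 CPM and UMOD from 0.293 to 0.615 CPM, while SLC12A1 stood at 1.37 and 1.39 CPM. The 3 immune markers overlapped between groups, at 2.07 to 4.77 CPM and 2.88 to 4.61 CPM. Their part in the results was not tested. In bulk RNA, fewer cells with an RNA and less RNA per cell cannot be told apart.

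Of the 37 genes, 20 held any count and 17 were at 0 in all 8 libraries. The 17 were RNU1-2, RNU1-3, RNU1-4, both U2 genes (RNU2-1 and RNU2-2P), RNU5A-1, RNU5E-1, RNU5F-1, RNU6-1, the U7 gene RNU7-1, the minor spliceosomal RNU12 and RNU4ATAC, VTRNA2-1, RN7SK, both 7SL genes (RN7SL1 and RN7SL2) and RPPH1. The sources used here do not give how reads over overlapping genes, or fitting several places, were treated, and these zeros set no limit on the level of the RNAs. RNU11 held 7 counts in all, 6 of them in control replicate 2 and 1 in tDR replicate 1.

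The genes at 0 differed from the counted genes in their place in the annotation. All 19 of the 37 genes that overlap no other gene in GENCODE release 29 held at least 10 counts. Of the 18 that overlap another gene, 1 (RNU11) held any count: 0 of 7 inside an intron only, 1 of 8 over an exon on the same strand, 0 of 2 over an exon on the opposite strand, and RNU7-1, over exons on both strands, at 0. The same held over annotated short noncoding RNA genes, microRNAs left out, whose symbol was in the count table and, RMRP aside, named a single place. Of these, 446 of 1148 (38.9%) without an overlap and 7 of 2134 (0.328%) with one held any count. Those in an intron only were counted in 1 of 1868 cases (0.0535%). This comparison was chosen after the counts were seen, and its cause was not tested.

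**Figure D1:**
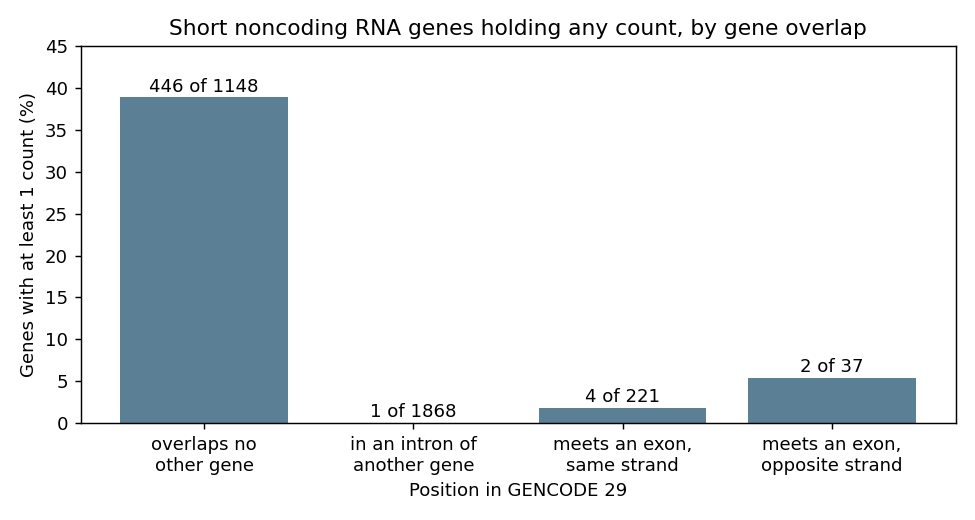
Share of the symbol-matched short noncoding RNA genes with at least 1 count in any library (y axis, percent). The x axis gives their place relative to other genes in GENCODE release 29. The bar for genes that overlap no other gene stands at 38.9% (446 of 1148), and the bars for overlapping genes lie at 5.41% or below.

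Of the overlapping genes with a row under the same symbol in the count table, CROCCP4, over RNU1-4, was at 0 and the others were counted. RNU4ATAC lies in CLASP1, a microtubule-binding protein gene, which held 214 ± 8.27 CPM in the control and 219 ± 11.3 CPM in the tDR libraries (SD, n = 4). RNU5A-1 lies in PARP16 (23.6 ± 1.44 and 23.0 ± 2.60 CPM), and RNU1-2 and RNU1-4 overlap CROCC (44.5 ± 3.53 and 45.8 ± 5.801 CPM). These 3 genes did not pass the test (edgeR quasi-likelihood F test, Benjamini-Hochberg adjusted p = 0.642, 0.899 and 0.830). WDR74, which overlaps RNU2-2P, fell from 30.7 ± 3.47 to 22.8 ± 3.97 CPM (log2 fold change -0.42 ± 0.11 SE, adjusted p = 0.00427), and RPS29, a ribosomal protein gene that overlaps RN7SL1, fell from 69.9 ± 9.35 to 59.9 ± 4.69 CPM (log2 fold change -0.22 ± 0.079 SE, adjusted p = 0.0292). Whether reads of RNU2-2P or RN7SL1 are among these counts was not tested. CCDC200 over RNU2-1, ARMH1 over RNU5F-1 and C12orf57 over RNU7-1 did not pass (adjusted p = 0.208, 0.803 and 0.913).

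The comparison of the tDR with the control libraries shows which of these RNAs differed after the transfection. edgeR's filter on low counts left 16 of the 37 genes in the test. RNU6-7, RNU6-8, RNU6-9 and RNU11 were counted but too low. Of the 16, 4 passed at an adjusted p under 0.05 (25%), against 24.3% of all 17184 genes tested, so the share of called genes was close to the background. RNU6-2 and RNU4-1 rose, where 12.8% of all genes rose, and VTRNA1-3 and RNU1-1 fell, where 11.4% fell. Scaling by library size alone moved the calls over all genes from 2206 higher and 1962 lower to 3295 and 907, and DESeq2 gave 1456 and 2202. The median log2 fold change was 0.063 over the 16 genes and 0.016 over all genes. In 1 of the 16, RNU6-2, every tDR library lay above every control library (11.8% of all genes), and in 0 of 16 every tDR library lay below (10.8% of all genes). RNU6-2 passed the filter through its tDR counts.

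U6 RNA forms the catalytic core of the spliceosome with U2 and is transcribed by RNA polymerase III. RNU6-2 held 3, 3, 3 and 8 counts in the control libraries and 51, 53, 83 and 67 counts in the tDR libraries. The highest control lay far below the lowest tDR library. In level this was 0.489 ± 0.207 CPM in the control and 8.42 ± 1.71 CPM in the tDR libraries (SD, n = 4). The log2 fold change was 4.02 ± 0.34 SE (edgeR quasi-likelihood F test, Benjamini-Hochberg adjusted p = 2.98e-14), the highest log2 fold change of the 17184 genes tested. Its control counts were below those of RNU6-8, which the filter on low counts removed. RNU6-2 thus entered the test through its tDR counts, and its rank and non-overlap are description and not separate support. The pooled counts, 17 in the control and 254 in the tDR libraries, gave a rate ratio of 16.6 with an exact 95% interval of 10.1 to 28.9 that covers counting error only. The call held in all 12 alternatives, with log2 fold changes from 3.85 to 4.39.

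The copies with the same or nearly the same sequence did not show that pattern. RNU6-9, which has the identical sequence, held 6, 2, 0 and 5 counts in the control and 4, 6, 4 and 5 in the tDR libraries. RNU6-7 held 1, 2, 3 and 0 counts against 4, 3, 2 and 0, and RNU6-8 held 6, 12, 10 and 12 counts against 6, 7, 12 and 6. All of these groups overlapped. Without a filter on low counts their log2 fold changes were 0.71 ± 0.77 SE (RNU6-9), 0.66 ± 1.12 SE (RNU6-7) and -0.25 ± 0.52 SE (RNU6-8), and the edgeR quasi-likelihood F test gave adjusted p = 0.588, 0.757 and 0.803. RNU6-1 was at 0 and lies in an intron of another gene. The difference between RNU6-2 and these copies was not tested, and their counts cannot be assigned to single copies from sequence alone.

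**Figure D2:**
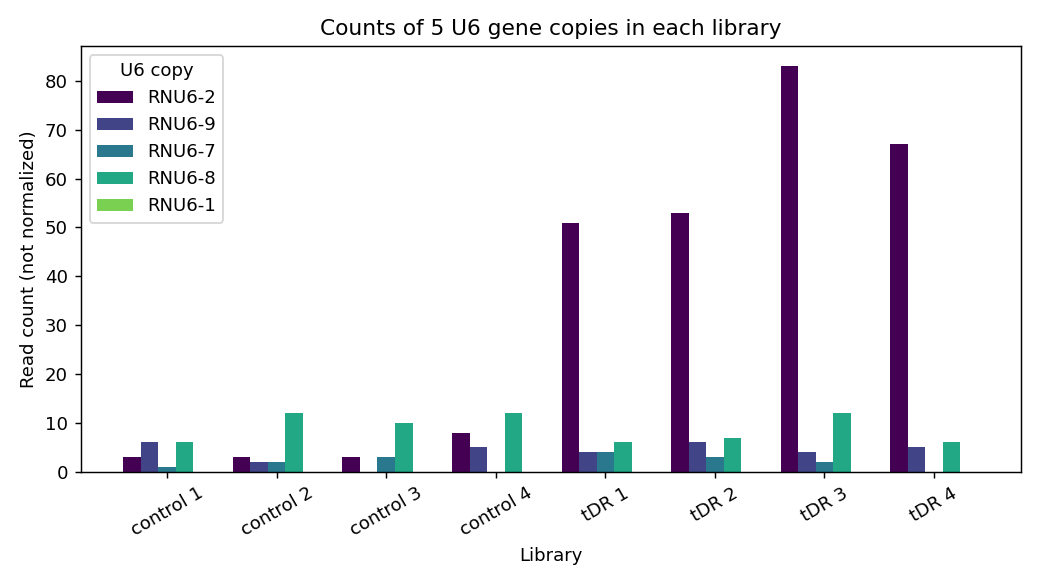
Raw read counts (y axis) of RNU6-2, RNU6-9, RNU6-7, RNU6-8 and RNU6-1 in each of the 8 libraries (x axis), 1 bar per gene. The RNU6-2 bars stand at 51 to 83 in the tDR libraries and at 3 to 8 in the control libraries, and the other 4 copies stay at 12 or below in every library.

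In all, 7 annotated genes have the RNU6-2 sequence. Of the others, RNU6-3P, RNU6-4P and RNU6-5P were at 0, and RNU6-6P held 5, 7, 3 and 3 counts in the control and 26, 2, 6 and 8 in the tDR libraries, with overlapping groups. RNU6-2 took 21.3% ± 7.25 of the counts of the 5 U6 genes in the control and 80.8% ± 4.05 in the tDR libraries (SD, n = 4), and the groups did not overlap. Their sum was 16, 19, 16 and 25 counts in the control and 65, 69, 101 and 78 counts in the tDR libraries, or 2.27 ± 0.356 and 10.4 ± 2.12 CPM. Without RNU6-2 the sum was 1.78 ± 0.290 and 2.01 ± 0.578 CPM, and the groups overlapped.

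A further 1271 rows carry the name of another U6 copy, most of them pseudogenes, and 124 of them held counts. Their sum was 5.81 ± 0.722 CPM in the control and 9.32 ± 0.975 CPM in the tDR libraries, with every tDR library above every control library. With these rows added the log2 ratio of the U6 sum went from 2.20 to 1.29. The next largest U6 row, RNU6-8, held 71 counts over the 8 libraries.

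The surroundings of RNU6-2 were measured as well. The nearest counted gene, TMEM259, lies 343 bases away and rose by a log2 fold change of 0.20 ± 0.066 SE (edgeR quasi-likelihood F test, adjusted p = 0.0231), and CNN2, at 4953 bases, rose by 0.39 ± 0.10 SE (adjusted p = 0.00341). Counts over the exons of olfactory receptor genes, taken as silent genes in this line after the data were seen, also moved with the group, from 34.8 to 45.7 CPM in the control to 57.4 to 63.4 CPM in the tDR libraries, and the groups did not overlap. Their density gives 0.0268 to 0.0446 counts over 107 bases in a control library and 0.0404 to 0.0683 counts in a tDR library. What the reads at RNU6-2 derive from was not tested.

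U4 RNA pairs with U6 in the tri-snRNP. RNU4-1 held 324, 382, 342 and 681 counts in the control and 379, 447, 512 and 503 in the tDR libraries. In level this was 35.5, 46.7, 54.4 and 66.9 CPM against 64.2, 61.2, 66.4 and 52.7 CPM, so the groups overlapped and control replicate 1 was lowest. RNU4-1 rose from 50.9 ± 13.2 to 61.1 ± 5.97 CPM, a difference of 0.26 ± 0.099 SE in log2 (edgeR quasi-likelihood F test, Benjamini-Hochberg adjusted p = 0.0494). The call was lost in 8 of 12 alternatives. Without control replicate 1 the log2 fold change was 0.10 (adjusted p = 0.405), and adjusted p ranged from 0.000592 to 0.443 over the alternatives.

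RNU4-2 held 552, 562, 498 and 1070 counts in the control and 547, 639, 650 and 721 in the tDR libraries. Its level was 78.4 ± 19.4 and 85.0 ± 7.15 CPM, and it did not pass (log2 fold change 0.11 ± 0.087 SE, edgeR quasi-likelihood F test, adjusted p = 0.400). Without control replicate 4 it passed, at 0.28 (adjusted p = 0.00628), and without control replicate 1 its sign turned, at -0.014 (adjusted p = 0.922). RNU4-1 took 39.3% ± 1.72 of the U4 counts in the control and 41.8% ± 1.504 in the tDR libraries, where the highest control (40.7%) lay just under the lowest tDR library (40.9%). The Wilson 95% intervals of those 2 libraries, 37.4% to 44.1% and 37.8% to 44.1%, overlapped nearly whole and cover counting error only.

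U1 RNA base-pairs with the 5′ splice site. RNU1-1 held 59, 15, 25 and 28 counts in the control and 11, 14, 15 and 21 in the tDR libraries. Control replicate 1 stood highest, at 6.46 CPM, and control replicate 2, at 1.83 CPM, lay below all tDR libraries. RNU1-1 fell from 3.75 ± 2.00 to 1.98 ± 0.151 CPM, a difference of -0.91 ± 0.34 SE in log2 (edgeR quasi-likelihood F test, adjusted p = 0.0398). The call was lost in 9 of 12 alternatives, and without control replicate 1 the log2 fold change was -0.49 (adjusted p = 0.360, range 0.00752 to 0.360 over the alternatives).

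The other counted U1 genes did not pass. RNVU1-7 held 66, 52, 50 and 90 counts in the control and 56, 69, 91 and 77 in the tDR libraries (7.59 ± 1.05 and 9.70 ± 1.54 CPM, log2 fold change 0.35 ± 0.18 SE, edgeR quasi-likelihood F test, adjusted p = 0.165). RNVU1-18, identical in sequence to RNU1-1, held 18, 16, 18 and 29 counts against 22, 20, 16 and 20 (log2 fold change 0.12 ± 0.33 SE, adjusted p = 0.834). The groups overlapped for both genes. The U1 sum was 13.8 ± 2.46 CPM in the control and 14.3 ± 1.49 CPM in the tDR libraries. The share of RNU1-1 in that sum went from 26.3% ± 10.7 to 14.01% ± 2.59, with every tDR library below every control library. The lowest control (replicate 2, 18.1%) lay just above the highest tDR library (replicate 4, 17.8%). The Wilson intervals of these libraries, 11.3% to 27.7% and 11.9% to 25.7%, overlapped nearly whole and cover counting error only. The highest control, replicate 1, stood at 41.3%. RNVU1-31, a U1 variant outside the 37 genes and the largest other U1 row by counts, held 43.3 ± 11.9 and 50.9 ± 5.24 CPM (adjusted p = 0.1097).

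U5 RNA aligns the exons for ligation. RNU5D-1 held 123, 97, 110 and 184 counts in the control and 81, 67, 120 and 96 in the tDR libraries (15.2 ± 3.03 and 12.1 ± 3.01 CPM), with overlapping groups. It did not pass (log2 fold change -0.34 ± 0.16 SE, edgeR quasi-likelihood F test, adjusted p = 0.116) but did without control replicate 2 (-0.45, adjusted p = 0.0339) or tDR replicate 3 (-0.49, adjusted p = 0.0360). RNU5B-1 held 41, 28, 59 and 99 counts against 49, 40, 49 and 48 (log2 fold change -0.12 ± 0.24 SE, adjusted p = 0.767). RNU6ATAC, the U6 counterpart of the minor spliceosome that removes a rare class of introns, held 18, 27, 37 and 26 counts in the control and 14, 13, 20 and 19 in the tDR libraries. Its groups overlapped and it did not pass (log2 fold change -0.61 ± 0.34 SE, adjusted p = 0.186). U2 and U7 had no counted member.

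Vault RNAs are RNA polymerase III transcripts found partly in the vault, a large cytoplasmic particle built from the major vault protein. VTRNA1-3 held 320, 191, 159 and 327 counts in the control and 138, 104, 158 and 162 in the tDR libraries. As levels these were 35.0, 23.4, 25.3 and 32.1 CPM against 23.4, 14.2, 20.5 and 17.0 CPM. The highest tDR library and the lowest control were level with each other, and the rest did not overlap. VTRNA1-3 fell from 28.9 ± 5.53 to 18.8 ± 3.99 CPM, a difference of -0.65 ± 0.13 SE in log2 (edgeR quasi-likelihood F test, Benjamini-Hochberg adjusted p = 9.59e-05). The call held in all 12 alternatives, with log2 fold changes from -0.76 to -0.55.

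The other 2 counted vault RNAs did not pass. VTRNA1-2 held 62, 34, 54 and 93 counts in the control and 41, 38, 52 and 50 in the tDR libraries (log2 fold change -0.26 ± 0.22 SE, edgeR quasi-likelihood F test, adjusted p = 0.413). VTRNA1-1 held 41, 14, 37 and 24 counts against 26, 28, 20 and 31 (log2 fold change -0.016 ± 0.31 SE, adjusted p = 0.978), and its sign changed in 6 of 12 alternatives, to 0.066 with library size alone. VTRNA1-2 and VTRNA1-1 are the nearest counted genes to VTRNA1-3, at 7145 and 14785 bases. The vault sum was 39.7 ± 7.49 CPM in the control and 28.3 ± 5.05 CPM in the tDR libraries, of which VTRNA1-3 took 73.2% ± 6.92 and 66.0% ± 3.30, with overlapping groups for both measures. Whether the 3 vault RNAs differ in their response was not tested.

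**Figure D3:**
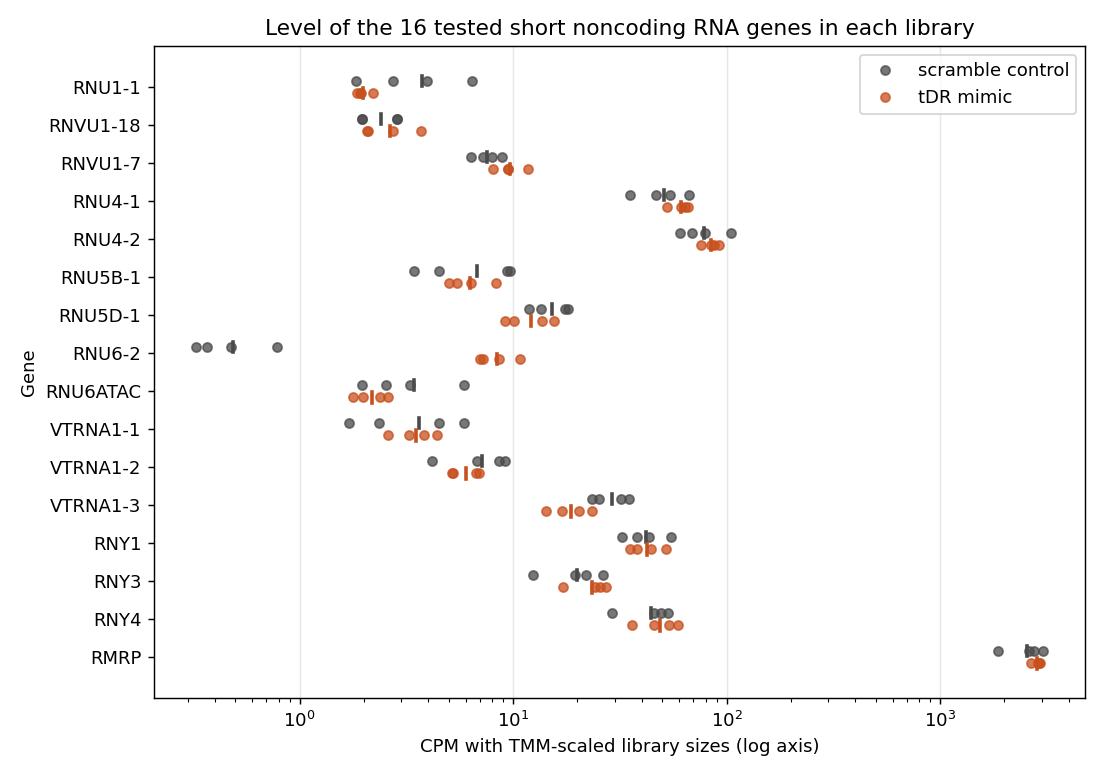
Level of the 16 tested genes in each library (x axis, CPM with TMM-scaled library sizes, log axis) by gene (y axis). Points are libraries, 4 control and 4 tDR per gene, and the ticks are group means. RNU6-2 is the gene whose groups lie apart, with means of 0.489 and 8.42 CPM.

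Y RNAs are stem-loop RNAs bound by the Ro60 autoantigen and by La. RNY1 held 347, 264, 344 and 440 counts in the control and 309, 258, 343 and 365 in the tDR libraries, or 42.0 ± 9.53 and 42.6 ± 7.51 CPM, a difference of 0.020 ± 0.11 SE in log2 (edgeR quasi-likelihood F test, adjusted p = 0.915). RNY3 held 200, 101, 166 and 199 counts against 161, 125, 187 and 243 (20.04 ± 5.86 and 23.5 ± 4.45 CPM, log2 fold change 0.24 ± 0.14 SE, adjusted p = 0.207). RNY4 held 416, 237, 312 and 539 counts against 351, 263, 414 and 437 (44.3 ± 10.62 and 48.7 ± 10.1 CPM, log2 fold change 0.13 ± 0.11 SE, adjusted p = 0.423). All 3 overlapped between groups, and control replicate 2 was the lowest control in CPM for each. The 95% interval of the log2 fold change was -0.19 to 0.23 for RNY1 and -0.088 to 0.35 for RNY4.

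RMRP is the RNA of RNase MRP, which cleaves precursor ribosomal RNA. It held 16985, 21346, 17333 and 30961 counts in the control and 17449, 21310, 22215 and 25362 in the tDR libraries. In level, control replicate 1 stood lowest at 1859 CPM and control replicate 4 highest at 3041 CPM, and the tDR libraries lay between, at 2659 to 2954 CPM. RMRP did not pass (2567 ± 504 and 2853 ± 133 CPM, log2 fold change 0.15 ± 0.062 SE, edgeR quasi-likelihood F test, adjusted p = 0.0628). It passed in 5 of 12 alternatives, among them library size alone (0.24, adjusted p = 0.00197), and without control replicate 1 the log2 fold change was 0.020 (adjusted p = 0.743, range 0.00102 to 0.743).

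Per kilobase of transcript, the order of control levels was RMRP (9722 CPM per kb), RNU4-2 (556), RNY4 (461), RNY1 (372), RNU4-1 (361), VTRNA1-3 (325), RNY3 (197) and RNU5D-1 (131). The control libraries of neighbours in this order overlapped, from RNU4-2 to VTRNA1-3 and from RNY3 to RNU5D-1, whereas RMRP lay above RNU4-2, and VTRNA1-3 above RNY3, in every control library. Below them came VTRNA1-2 (80.5), RNU5B-1 (58.2), RNVU1-7 (46.3), VTRNA1-1 (36.5), RNU6ATAC (27.2), RNU1-1 (22.9), RNVU1-18 (14.7) and RNU6-2 (4.57), and here too neighbours overlapped, except RNU6-2, which lay below RNVU1-18 in every control library. In the tDR libraries RNU6-2 stood at a mean of 78.7 CPM per kb, above the means of VTRNA1-2 (67.8) and RNVU1-7 (59.1). Its tDR libraries overlapped with those of both genes. These are levels of counted fragments and not of molecules in the cell.

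**Figure D4:**
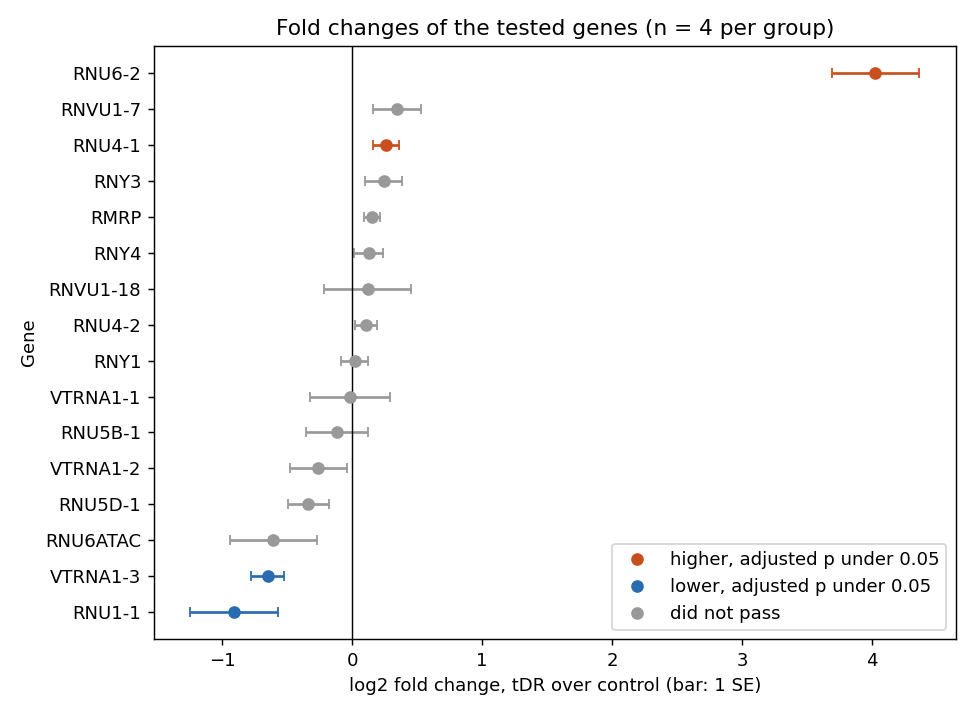
Log2 fold change of tDR over control (x axis) with its SE (bars) for the 16 tested genes (y axis, ordered by fold change), 4 libraries per group. RNU6-2 stands at 4.02 and the other 15 genes lie between -0.91 and 0.35.

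Copies of the uncounted RNAs outside the 37 genes held counts. RN7SL3, another 7SL gene that overlaps no other gene, held 9523, 9743, 7708 and 13269 counts in the control and 6889, 7725, 8194 and 9741 in the tDR libraries, while RN7SL1 and RN7SL2 were at 0. RN7SL3 fell from 1191 ± 109 to 1077 ± 62.4 CPM, with overlapping groups (log2 fold change -0.15 ± 0.047 SE, edgeR quasi-likelihood F test, adjusted p = 0.0189). Rows named as 7SK pseudogenes summed to 11.9 ± 3.35 and 14.1 ± 3.39 CPM, and RN7SKP203 gave most of these counts (531 of 824). U2 pseudogene rows held 142 counts over the 8 libraries. Of 14 tested rows that name another copy of these RNAs, or their family (Y_RNA and Metazoa_SRP), RN7SL3 fell, 0 rose and 13 did not pass. Over all 17184 genes tested, 11.4% fell and 12.8% rose.

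The proteins that make, assemble and bind these RNAs were counted from mRNA. Of 117 such genes 107 were tested, 46 fell, 1 rose and 60 did not pass, where 11.4% of all genes tested fell and 12.8% rose. The median log2 fold change of the partner genes was -0.17, against 0.016 over all genes. With library size alone 18 fell and 5 rose. These are well-expressed genes. The 4004 genes at or above their median level had a median log2 fold change of -0.090, with 32.7% lower and 4.82% higher, and a difference between the partner genes and these was not tested. Nothing here is called particular to these lists.

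The Sm and LSm proteins, which ring the U RNAs, had 10 of 14 tested members lower and 0 higher (median log2 fold change -0.29, 6 lower with library size alone). Over all genes tested 11.4% were lower, and 32.7% of those at or above the median level of the partner genes. SNRPF fell from 206 ± 13.3 to 154 ± 6.68 CPM, a difference of -0.42 ± 0.054 SE in log2 (edgeR quasi-likelihood F test, adjusted p = 2.18e-08) and SNRPD1 from 352 ± 47.0 to 275 ± 3.36 CPM (-0.35 ± 0.055 SE, adjusted p = 1.70e-06). SNRPG (-0.37) and SNRPE (-0.29) fell as well, and for these 4 genes every tDR library lay below every control library (10.8% of all genes). Assembly and export factors had 12 of 19 lower and 0 higher, 4 with library size alone. The cap-binding proteins NCBP2 (-0.37) and NCBP1 (-0.25), the exportin XPO1 (-0.24) and STRAP (-0.24), a partner of the SMN complex, fell.

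Among particle-specific snRNP proteins 13 of 22 were lower, 4 with library size alone (11.4% of all genes tested were lower, and 32.7% of the well-expressed ones). PRPF6, a bridge in the tri-snRNP, fell from 245 ± 20.4 to 197 ± 6.35 CPM (-0.32 ± 0.053 SE, edgeR quasi-likelihood F test, adjusted p = 7.31e-06) and SNRPC, a U1 protein, from 202 ± 8.16 to 162 ± 13.3 CPM (-0.32 ± 0.054 SE, adjusted p = 9.14e-06). PRPF8 (-0.19) and the helicase SNRNP200 (-0.17) fell, and with library size alone both missed the threshold (adjusted p = 0.0547 and 0.114). Of 21 transcription factors and Integrator subunits of snRNA genes 4 were lower, namely INTS8 (-0.32), INTS3 (-0.22), POU2F1 (-0.21) and INTS7 (-0.17), and with library size alone INTS8 was the 1 still lower and 2 genes were higher.

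La (SSB), which binds the 3′ end of RNA polymerase III transcripts such as U6, Y and vault RNAs, fell from 149 ± 7.58 to 111 ± 6.19 CPM, a difference of -0.44 ± 0.058 SE in log2 (edgeR quasi-likelihood F test, adjusted p = 4.98e-08). LARP7, which binds U6 and 7SK RNA, fell from 41.7 ± 6.33 to 33.5 ± 1.66 CPM (-0.32 ± 0.096 SE, adjusted p = 0.0103). That call was lost with library size alone and without control replicate 1 (-0.21, adjusted p = 0.105). USB1, which trims the 3′ end of U6, held 45.3 ± 1.68 and 51.8 ± 4.20 CPM (adjusted p = 0.0645), and METTL16, which methylates U6, 102 ± 3.52 and 92.9 ± 4.44 CPM (adjusted p = 0.0915). Neither passed, though every tDR library lay above every control library for USB1 (11.8% of all genes) and below for METTL16 (10.8%). With library size alone 1 gene of the U6 end processing list was higher. HEXIM1, the 7SK-bound inhibitor of P-TEFb, was the 1 partner gene that rose, from 23.9, 23.9, 24.8 and 22.2 CPM to 38.9, 40.3, 44.3 and 35.4 CPM (log2 fold change 0.75 ± 0.099 SE, adjusted p = 6.11e-08). The groups did not overlap, as for 11.8% of all genes in this direction. The P-TEFb subunits CDK9 (0.16, adjusted p = 0.245) and CCNT1 (0.061, adjusted p = 0.524) did not pass.

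Of the signal recognition particle proteins 4 of 8 were lower, 2 with library size alone (11.4% of all genes tested were lower, and 32.7% of the well-expressed ones). SRP14 fell from 148 ± 4.32 to 116 ± 4.58 CPM (-0.35 ± 0.056 SE, edgeR quasi-likelihood F test, adjusted p = 3.10e-06) and SRP9, its partner on the Alu domain of 7SL, from 172 ± 17.3 to 141 ± 9.80 CPM (-0.29 ± 0.059 SE, adjusted p = 0.000154). SRP72 (-0.15) and SRPRB (-0.19) passed with adjusted p = 0.0262 and 0.0489, and the calls were lost in 4 and 7 of 12 alternatives. Of 10 tested RNase P and MRP proteins POP7 alone was lower (-0.23, adjusted p = 0.0446), a call lost in 8 of 12 alternatives. Of 5 vault and Y RNA partners SSB was lower, and with library size alone 1 was higher as well. RO60 held 202 ± 18.3 and 186 ± 2.94 CPM (adjusted p = 0.0941), the vault RNA methyltransferase NSUN2 127 ± 4.83 and 115 ± 3.92 CPM (adjusted p = 0.0523), and the major vault protein MVP 2.24 ± 1.19 and 3.29 ± 1.64 CPM (adjusted p = 0.225). For NSUN2 every tDR library lay below every control library (10.8% of all genes), and for RO60 and MVP the groups overlapped.

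**Figure D5:**
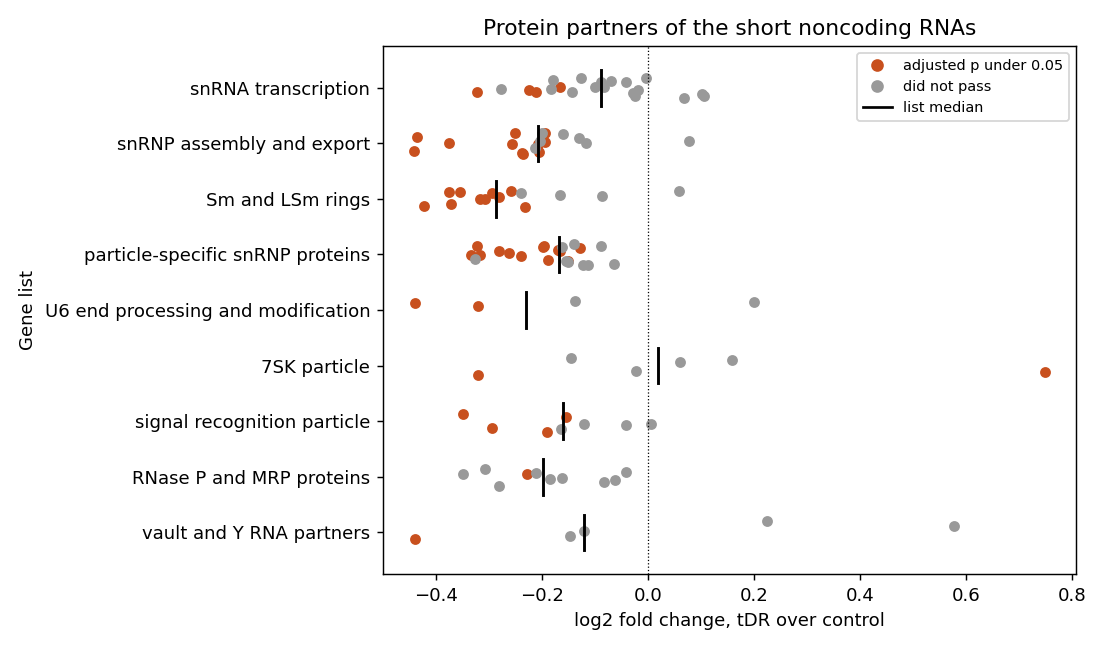
Log2 fold change of tDR over control (x axis) for the tested genes of the 9 partner lists (y axis), 1 point per gene, coloured by whether the gene passed at an adjusted p under 0.05, with the list median as a line. HEXIM1 stands at 0.75 in the 7SK list, and the medians of the other 8 lists lie between -0.29 and -0.087.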

How the data were processed

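Long RNA was sequenced in 8 libraries from HEK293 total RNA, made with Takara's low-input stranded SMARTer kit for total RNA, per the labels' protocols. The authors deposited whole-number read counts per gene, without normalization. The submitters' processing notes list STAR 2.7.8a, featureCounts 2.0.2, DESeq2 1.30.1, cutadapt 2.10 and FastQC 0.11.9, and name hg38 and GRCh38.p13. What each tool did, the annotation, the strand setting and the handling of reads with several matches were not given in the sources used here.

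Genes were tested with edgeR 4.0.16 in R 4.3.3 (filterByExpr, TMM, glmQLFit and glmQLFTest, group as the only term, all 8 libraries). P-values were Benjamini-Hochberg adjusted over 17184 genes, with calls under 0.05. The SE was taken as the absolute log2 fold change over the square root of F. The steps were tested on simulated data. Replicates differed by more than counting noise (chi-square of 2.13 to 4.46 per degree of freedom). Class sums got no test. Alternatives were DESeq2 1.42.0, library size alone, no filter, a replicate block and leaving out each library. Positions and sequences came from GENCODE release 29 on GRCh38, matched by symbol and 1-based. The sequence of the U6 copies is not reported here.

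The members and lists were chosen with earlier results of these data known. Members with at least 10 counts are given by library, genes overlapping a member are named with it where the count table has their symbol, and up to 4 called genes per partner list with the smallest p. RNU11, RNU6-6P, RNVU1-31, RN7SL3, RN7SKP203, the neighbours of RNU6-2, and partner genes that did not pass were named after their values were seen.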

Additional observations from a re-analysis of the deposited data

Results flagged for a closer look

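In 172 groups of 4 libraries, Dixon's test set 10 single libraries apart from the other 3 (gap over range above its 95% critical value), and chance alone sets apart about 1 in 20 groups. RNU11 stood at 0.734 CPM (6 counts) in control replicate 2 and 0.169 CPM (1 count) in tDR replicate 1, with 0 in the others of each group. With all other libraries of a group at 0, any count is set apart, so these RNU11 flags carry no weight. RNU6-6P was high in tDR replicate 1, at 4.40 CPM (26 counts). The sum of the U6 members without RNU6-2 was low in tDR replicate 4, at 1.15 CPM (11 counts). The share of RNU4-1 in the U4 counts was high in tDR replicate 3, at 44.1%. Of the protein-coding genes, NCBP1 was high in control replicate 3 (153 CPM), SNRNP200 was high in control replicate 2 (796 CPM), PRPF8 was low in control replicate 1 (863 CPM), SNRPE was low in tDR replicate 4 (95.9 CPM) and C12orf57 was low in tDR replicate 3 (1.56 CPM). For RNU6-2, VTRNA1-3 and RNU1-1 no library was set apart in CPM.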

How the results depend on the processing

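RNU6-2 and VTRNA1-3 were called in all 12 alternatives. The count of higher members, 2, was 1 with DESeq2 and 1 to 4 when single libraries were left out. The count of lower members, also 2, was 1 with DESeq2, 1 with library size alone and 1 to 3 when single libraries were left out. Library size alone gave 5 higher and 18 lower partner genes against 1 and 46, and leaving out single libraries gave 35 to 51 lower. The log2 ratio of the U6 sum, 2.20, was 1.29 with all other copies by name. Among members that did not pass, the sign changed in some settings. RNY1 had -0.013 without a filter and -0.012 with DESeq2, and VTRNA1-1 had 0.066 with library size alone. When single libraries were left out, log2 fold changes ran from -0.074 to 0.23 for RNVU1-18, -0.014 to 0.28 for RNU4-2, -0.34 to 0.14 for RNU5B-1, -0.25 to 0.26 for VTRNA1-1, -0.093 to 0.14 for RNY1 and -0.037 to 0.24 for RNY4. The cause was not tested.

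Replicate numbers did not pair the libraries. Same-numbered libraries had correlations of deviations of -0.010, 0.070, -0.029 and 0.019. With the replicate block 2 members were higher, 1 was lower (RNU1-1 and RNU4-1 lost their calls, the latter at adjusted p = 0.0529), 40 partner genes were lower and 1 was higher, RMRP passed (0.17, adjusted p = 0.0435) and VTRNA1-1 had 0.061. RNU6-7, RNU6-8, RNU6-9 and RNU11 were too low for edgeR's filter. Sequence shared with other genes limits every U6, U1 and RNY3 value, and in part those of RNY1, RNY4, RNU6ATAC, RNU5D-1, RNU5B-1 and RNU4-1.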
